A study of Mus musculus with 12 samples.

Results

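Fatty acid oxidation genes were followed in RNA of 3T3-L1 cells, a mouse preadipocyte line that hormones turn into adipocytes, cells that store fat. The set held 37 genes of the 54532 in the deposited count table. They were chosen by symbol for their known roles, with earlier results of these data known. Of these, 18 belong to the mitochondrial route and 19 to the peroxisomal route. The 12 libraries, all of day 6 and all labelled wild type, formed 4 groups of 3. One group was labelled untreated. The second received DMI, a cocktail of 1 uM dexamethasone, 0.5 mM IBMX and 10 ug/ml insulin, from day 0 to day 2, followed by 2 days of insulin alone and then plain medium with 10% serum. The remaining groups were labelled as DMI with luteolin and DMI with quercetin. The doses and times of both compounds are not in the labels, and the treatment text is the same on all samples, so the untreated group is known from the title and the treatment label alone. A single established line was used, and the labels do not state whether replicates were separate cultures. P-values therefore measure only the spread between these libraries, which may be technical.

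Mitochondrial oxidation begins at the carnitine shuttle, which brings long-chain acyl groups across the inner membrane. Each turn of the spiral then runs through an acyl-CoA dehydrogenase, a hydratase, a second dehydrogenase and a thiolase, with electrons leaving through the electron transfer flavoprotein. Peroxisomes shorten very long-chain and branched acids with their own oxidases, bifunctional enzymes and thiolases, and import these proteins with peroxins. In white adipocytes, which mainly store lipid, both routes are known to be present and to be induced during differentiation.

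Promoter windows from RefSeq on GRCm38.p6, running from 250 bases before to 50 after a gene's start, were matched for 30 of the 37 genes. The windows below were chosen because Hadha and Hadhb, the genes of both subunits of the trifunctional protein, lie head to head 85 bases apart on chromosome 5 (Hadha 30118304 to 30155162, minus strand; Hadhb 30155248 to 30184593, plus strand) and because their fold changes on induction are given side by side. Pex11a on chromosome 7 (79735957 to 79743131, minus strand) had the largest rise among genes with more than a few counts, and Cpt1a on chromosome 19 (3323301 to 3385732, plus strand) was not called in any of the comparisons. Capitals mark the Sp1/KLF box GGGCGG and the CCAAT box, on either strand. The first window, chr5:30155003-30155230 on the plus strand, is the stretch that the Hadha and Hadhb windows share, and gene starts in RefSeq can differ from those in the table given above. The second is chr7:79743082-79743381 on the minus strand and the third chr19:3323051-3323350 on the plus strand.
shared Hadha and Hadhb: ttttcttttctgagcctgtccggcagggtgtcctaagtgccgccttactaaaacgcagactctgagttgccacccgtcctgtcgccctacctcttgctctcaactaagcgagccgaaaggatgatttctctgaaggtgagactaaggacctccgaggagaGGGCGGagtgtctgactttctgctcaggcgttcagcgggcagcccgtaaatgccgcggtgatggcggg
Pex11a: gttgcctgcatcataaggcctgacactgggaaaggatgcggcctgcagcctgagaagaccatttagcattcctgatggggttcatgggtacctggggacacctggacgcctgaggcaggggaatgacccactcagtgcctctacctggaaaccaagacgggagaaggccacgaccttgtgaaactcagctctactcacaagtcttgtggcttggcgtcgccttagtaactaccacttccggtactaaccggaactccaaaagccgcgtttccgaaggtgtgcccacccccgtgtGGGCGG
Cpt1a: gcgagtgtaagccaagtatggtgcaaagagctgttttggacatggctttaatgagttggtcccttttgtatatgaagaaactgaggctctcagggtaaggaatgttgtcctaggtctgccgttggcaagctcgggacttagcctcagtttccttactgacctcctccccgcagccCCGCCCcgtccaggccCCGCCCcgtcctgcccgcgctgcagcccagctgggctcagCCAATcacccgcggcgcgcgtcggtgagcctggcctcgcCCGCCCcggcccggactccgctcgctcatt

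The shared Hadha and Hadhb stretch held a GGGCGG and no CCAAT, the Pex11a window a GGGCGG at its end, and the Cpt1a window GGGCGG on the opposite strand and a CCAAT. Across the set, GGGCGG was found on either strand in 26 of 33 windows, or 78.8%, against 61% of the windows of all tested genes and 35.7% of all windows. CCAAT was in 39.4% of the set's windows and 38.1% of those of tested genes. The NRF1 site was in 9.09% (Abcd3, Etfb and Etfdh) and in 9.64% of those of tested genes. The direct repeat read by PPAR and RXR receptors was in 0 of the 33 windows and in 0.744% of those of tested genes. The estrogen-related receptor site TCAAGGTCA was in 0 of 33 and in 0.258%. These are letter matches within short windows, and a window without a match says nothing of the factor.

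Levels are given as CPM, that is counts relative to the library total after TMM scaling. Library totals ran from 14522182 to 19436796 counts, and 14855 genes passed the low-count filter. Of the 37 genes, 36 passed it, and Cpt1b did not. Together the 37 genes took 0.184% to 0.189% of all counts in the untreated libraries. In the DMI libraries their share was 0.626%, 0.672% and 0.339%. It was 0.462%, 0.48% and 0.318% with luteolin added, and 0.375%, 0.386% and 0.237% with quercetin added. All 9 induced libraries lay above the untreated ones, and the third library of each induced group was its lowest.

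**Figure D1:**
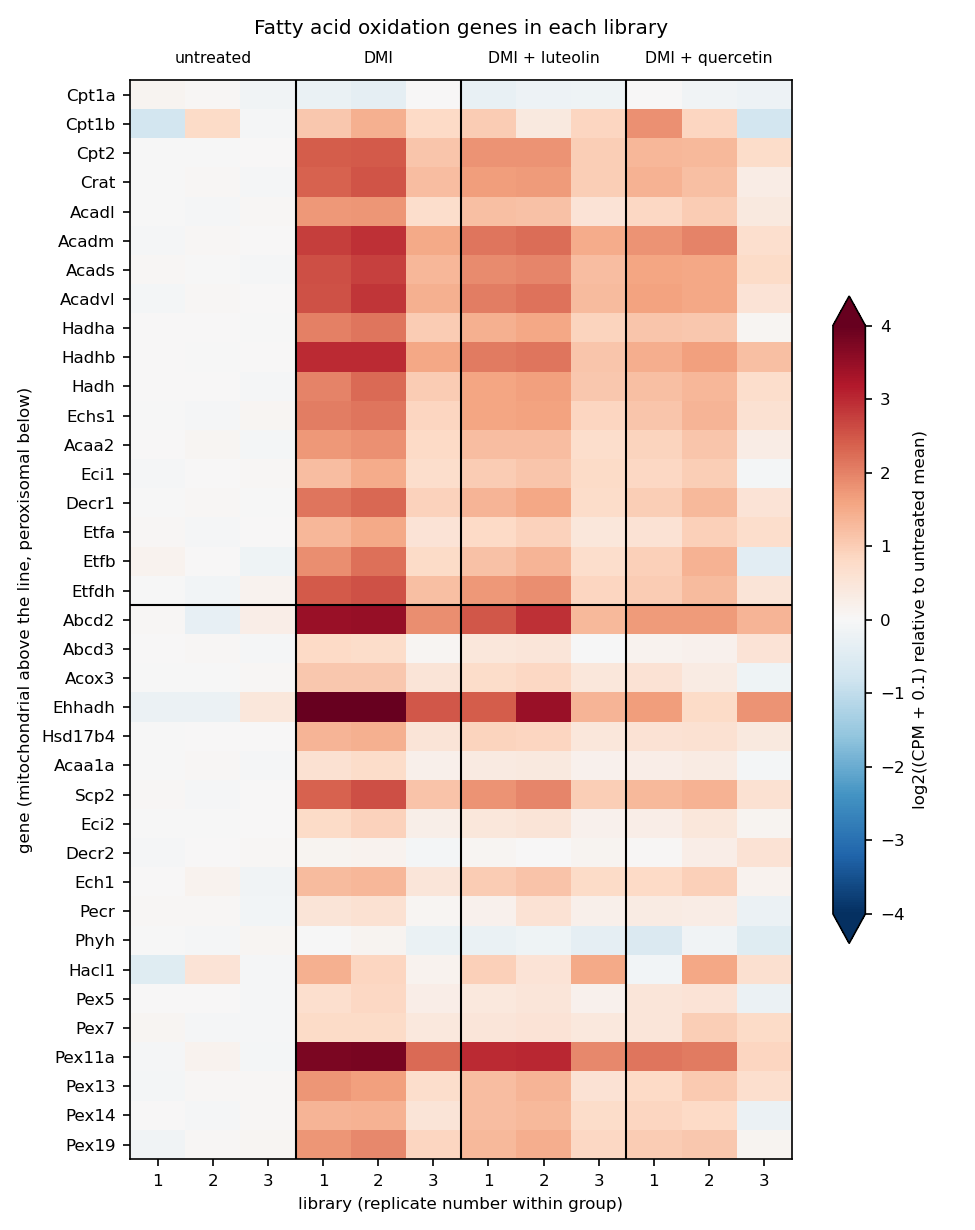
Level of each of the 37 genes in each of the 12 libraries, as the log2 of CPM plus 0.1 relative to the untreated mean; columns are libraries by group, rows are genes, and the colour scale ends at 4 and at -4. Most rows are red in all 9 induced libraries and palest there in the third library of the group, while Cpt1a, Decr2 and Phyh stay near white throughout.

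Compared per kilobase of the gene length in the table, Acadl, the long-chain acyl-CoA dehydrogenase, had the highest mean level over all libraries at 84.5 CPM per kb. Etfa, a subunit of the electron transfer flavoprotein, followed at 74.3 CPM per kb, Acaa2, the mitochondrial thiolase, at 68.6 and Scp2, which holds a peroxisomal thiolase, at 62.8. Acadl ranked first in each of the 4 groups. At the other end, Cpt1b stood at 0.0559 CPM per kb, Ehhadh at 0.29, Hacl1 at 0.298 and Pex7 at 1.77. The summed level of the mitochondrial genes was 338 ± 3.48 CPM per kb (SD, n = 3) in untreated cells and 1093 ± 408 with DMI, a ratio of 3.23. The peroxisomal sum was 218 ± 3.47 and 483 ± 150, a ratio of 2.21. Gene lengths in the table are lengths over all annotated exons, so levels per kb of genes with long minor isoforms are understated.

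DMI was set against untreated cells first, to see how induction had moved these genes by day 6. By edgeR's quasi-likelihood test, 31 of 36 genes were higher at an adjusted p under 0.05 and 0 were lower, where 14.7% of all tested genes were called higher, 12.4% lower and 27.1% in either direction. The median log2 fold change was 1.501 over the 36 genes and -0.04 over all tested genes. In the mitochondrial route 16 of 17 tested genes rose, with a median of 1.86, and in the peroxisomal route 15 of 19, with a median of 0.90. The libraries of both groups did not overlap for 32 of the genes, all higher with DMI, against 22.7% of all genes not overlapping and higher. The 5 genes not called were Cpt1a, Decr2, Pecr, Phyh and Hacl1.

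**Figure D2:**
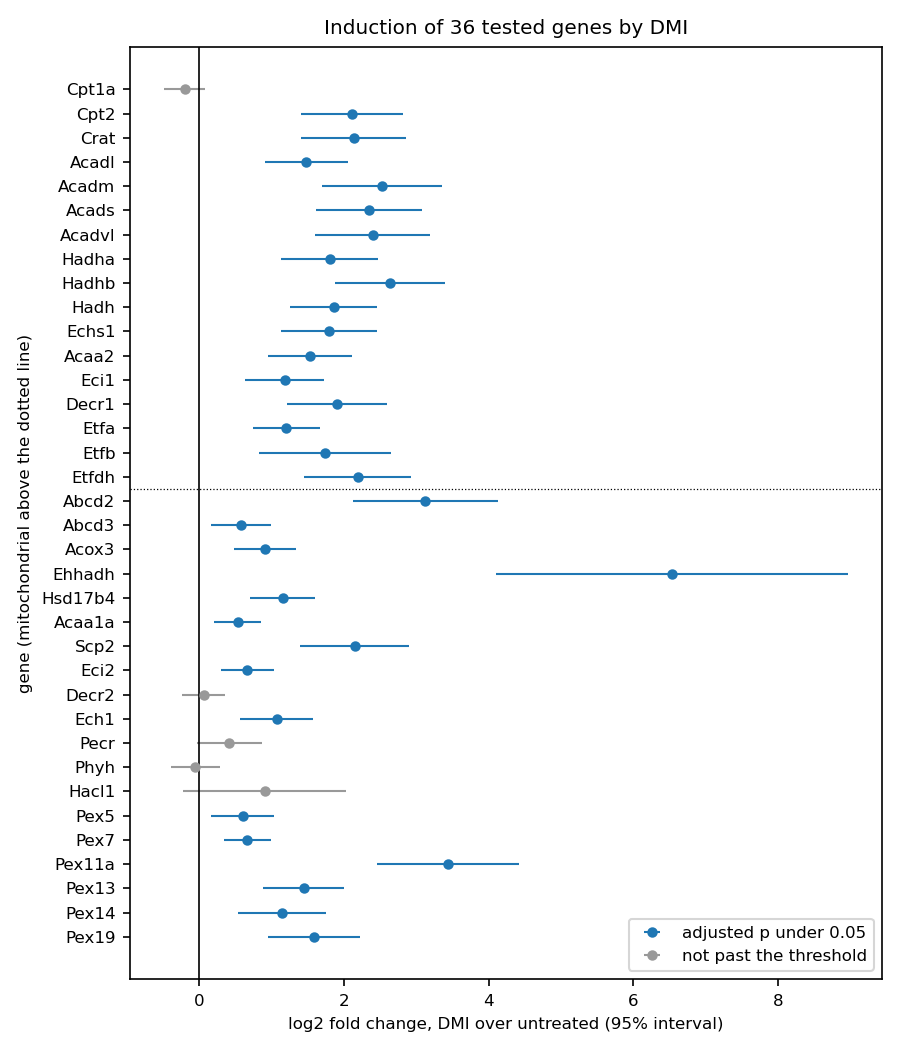
Log2 fold change of DMI over untreated for the 36 tested genes, with 95% intervals derived from the edgeR fit. Blue points passed an adjusted p of 0.05 and grey points did not. The 31 blue points are all to the right of 0, from 0.53 for Acaa1a to 6.53 for Ehhadh.

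In the carnitine shuttle, the liver isoform of the outer carnitine palmitoyltransferase, Cpt1a, which is regarded as the rate-setting step, had 162, 155 and 135 CPM in the untreated libraries and 125, 116 and 152 CPM with DMI. These ranges overlapped, and the log2 fold change was -0.20 (95% interval -0.48 to 0.08, adjusted p = 0.264 by edgeR). With replicate 3 of all induced groups left out, Cpt1a was called lower, at -0.28 with an edgeR adjusted p of 0.0191. In that setting 52.8% of all tested genes were called. It also dropped the highest DMI value, 152 CPM, so a lower DMI mean was fixed in advance. Cpt1b, the muscle isoform, had 38 counts in all: 4 in the untreated group, 12 with DMI, 9 with luteolin added and 13 with quercetin added. In CPM this was 0, 0.179 and 0.0604 untreated, 0.252, 0.343 and 0.185 with DMI, 0.233, 0.118 and 0.2 with luteolin, and 0.491, 0.202 and 0 with quercetin, ranges that overlap between the induced groups. Its share of the level of both isoforms per length was 0.068% in untreated and 0.262% in DMI cells, with an exact two-sided permutation p of 0.1, the smallest that 3 against 3 allows. Cpt1b was thus at most 0.41% of both isoforms in any library.

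Cpt2, the inner-membrane partner, went from 40, 40 and 41 CPM to 215, 221 and 86.5 CPM (log2 fold change 2.11, SE 0.32, adjusted p = 0.000956). Crat, carnitine acetyltransferase, rose from 101 ± 2.54 to 443 ± 180 CPM (SD, n = 3), a log2 fold change of 2.13. Every DMI library was above every untreated one for both genes, the third by the least. So Cpt2 and Crat rose in this step of the route where Cpt1a was not called.

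All 4 acyl-CoA dehydrogenases, which take the first step of the spiral on chains of falling length, rose. Acadvl, for very long chains, had 35.7, 38.7 and 37.9 CPM untreated and 220, 272 and 102 CPM with DMI (log2 fold change 2.40, SE 0.37, adjusted p = 0.000934). Acadl, for long chains, had 90.4, 86.9 and 94.4 CPM and then 299, 310 and 148 CPM (1.48, SE 0.26, adjusted p = 0.00214). The third DMI library was the lowest for both, and still above the untreated ones. Acadm, the medium-chain enzyme, had 47, 50.9 and 49.4 CPM untreated and 333, 374 and 141 CPM with DMI (2.53, SE 0.38, adjusted p = 0.000887). Acads, for short chains, went from 47.6, 46.2 and 44.9 CPM to 278, 310 and 117 CPM (2.35, SE 0.34, adjusted p = 0.000634). Acadl, with the highest untreated level per kb, had the smallest log2 fold change of the 4.

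All 5 genes of the later steps rose. Hadha, the trifunctional subunit with hydratase and dehydrogenase activity, had 154, 154 and 152 CPM untreated and 618, 672 and 313 CPM with DMI (3.48-fold, 95% interval of the log2 fold change 1.13 to 2.47, adjusted p = 0.00171). Hadhb, the thiolase subunit transcribed the other way from the same stretch, had 47, 45.8 and 46.8 CPM and then 366, 366 and 135 CPM (6.21-fold, log2 fold change 2.64, 95% interval 1.87 to 3.40, adjusted p = 0.000457). Hadhb thus went from 7.05 to 43.8 CPM per kb and Hadha from 17.6 to 61.2. The intervals of both fold changes overlap, and their difference was not tested. Hadh, the short-chain hydroxyacyl-CoA dehydrogenase, had 52.5, 53.4 and 51 CPM untreated and 208, 254 and 107 CPM with DMI (1.86). Acaa2 went from 53.8, 56.7 and 50.8 CPM to 178, 192 and 94 CPM (1.53), and Echs1, the short-chain hydratase, had a log2 fold change of 1.79. In each case the untreated libraries lay close together and the DMI libraries spread over a range in which the third was the lowest.

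Both auxiliary enzymes for unsaturated chains rose: Decr1, the dienoyl-CoA reductase, by 1.90 and Eci1, the enoyl-CoA isomerase, by 1.18 on the log2 scale. The electron transfer genes rose as well. Etfa had 84.7, 78.6 and 82.7 CPM untreated and 208, 237 and 121 CPM with DMI (1.20). Etfdh, which passes the electrons to ubiquinone, had 42.6, 39.5 and 47 CPM and then 236, 254 and 99.6 CPM (2.19, adjusted p = 0.00106). Etfb, partner of Etfa, had a log2 fold change of 1.73 (SE 0.42). Etfdh thus had a larger fold change than the flavoprotein subunits it serves, a difference that was not tested.

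**Figure D3:**
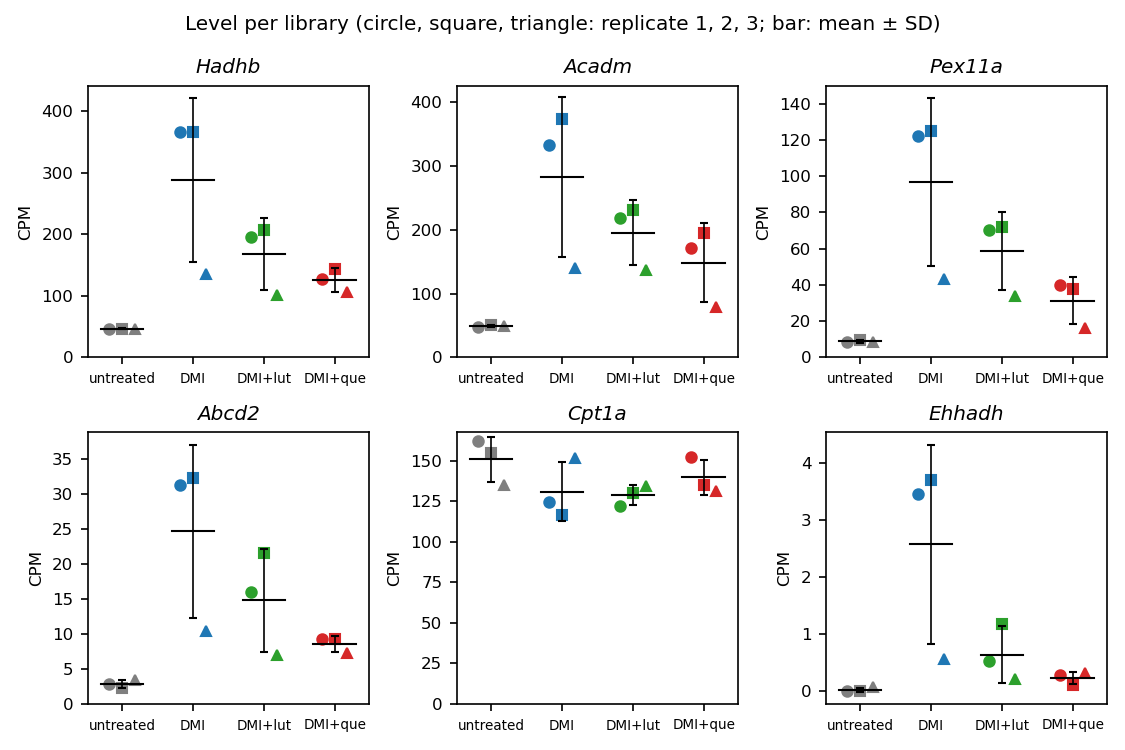
CPM of 6 genes in each library by group, with circles, squares and triangles for replicates 1, 2 and 3 and bars for the mean ± SD (n = 3). Triangles lie lowest in the DMI and luteolin groups for Hadhb, Acadm, Pex11a, Abcd2 and Ehhadh, while Cpt1a runs from 116 to 162 CPM over all groups.

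Among peroxisomal transporters, Abcd2, which carries very long-chain acyl-CoA, had 2.86, 2.21 and 3.38 CPM untreated and 31.3, 32.3 and 10.4 CPM with DMI (log2 fold change 3.13, SE 0.46, adjusted p = 0.000797). Abcd3, an abundant transporter of the same membrane, rose by 0.57 (adjusted p = 0.0431). Abcd2 was thus the transporter with by far the lowest untreated level, 0.474 CPM per kb against 12.3 for Abcd3.

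All 5 peroxisomal oxidation enzymes rose. Ehhadh, the L-bifunctional enzyme and a classical PPAR-alpha target in rodent liver, had 0, 0 and 1 counts in the untreated libraries and 118 in the DMI group, of which 9 were in the lowest library. In CPM, the DMI libraries had 3.46, 3.70 and 0.554. The ratio of the summed counts, scaled for depth, was 125, with a 95% counting interval of 22 to 4968 (edgeR adjusted p = 0.00172). It passed the low-count filter through 3 libraries, DMI 1 and 2 and luteolin 2, so its place among the tested genes already rested on high values in DMI cells, and the size of the rise is uncertain. Hsd17b4, the D-bifunctional enzyme of the main peroxisomal route, stood at 21.2 CPM per kb already in untreated cells and rose by 1.15 on the log2 scale. Scp2 went from 83.4, 78 and 82.4 CPM to 416, 486 and 180 CPM (2.15, adjusted p = 0.00128). Acox3, an oxidase of branched-chain acids, rose by 0.90, and Acaa1a, the straight-chain thiolase, by 0.53. Acaa1a has a near-identical copy, Acaa1b, and how reads were split between them is uncertain; Acaa1b had 0.0815 CPM untreated and 10.8 CPM with DMI.

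Of 6 auxiliary and alpha-oxidation enzymes, 2 rose, Ech1 by 1.07 and Eci2 by 0.67; both are isomerases of unsaturated acyl-CoA. Decr2, the peroxisomal dienoyl-CoA reductase, had 41.6 ± 1.4 CPM untreated and 43.3 ± 3.66 CPM with DMI, a log2 fold change of 0.06 (95% interval -0.24 to 0.36). Phyh, phytanoyl-CoA hydroxylase of alpha-oxidation, had a log2 fold change of -0.06 (95% interval -0.39 to 0.28). Decr2 and Phyh libraries overlapped between both groups. Pecr, an enoyl-CoA reductase, had 0.42 (adjusted p = 0.154), although its libraries did not overlap. Hacl1, the lyase that follows Phyh, had 43 counts in the untreated group and 76 with DMI (0.90, 95% interval -0.23 to 2.03), too few to place it.

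All 6 peroxins rose. Pex11a, which acts in peroxisome division, had 8.52, 9.84 and 8.34 CPM untreated and 122, 125 and 43.3 CPM with DMI (10.9-fold, log2 fold change 3.44, SE 0.45, adjusted p = 0.000408). Pex19, the chaperone of membrane proteins, rose by 1.58, the docking factors Pex13 and Pex14 by 1.44 and 1.14, and the import receptors Pex7 and Pex5 by 0.66 and 0.60. Pex11a had the largest fold change of the 6, a difference that was not tested.

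Of the 31 calls, 25 held under every one of 19 alternative settings in which the gene was tested. Those lost at least once were Abcd3 (8 settings), Pex5 (7), Acaa1a (5), Eci2 and Pex14 (2 each) and Etfb (1). Ehhadh fell below the filter when only the 6 libraries compared were fitted. With replicate 3 of all induced groups left out, 32 genes were higher and 1, Cpt1a, was lower, where 52.8% of all tested genes were called.

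Related genes outside the set, from lists chosen with earlier results of these data known, moved mostly the same way. The counts that follow are of calls, where 14.7% of all tested genes were called higher and 12.4% lower. Of 10 tested genes for fatty acid activation and carnitine supply, 5 were called higher and 0 lower. Their median log2 fold change was 0.41, and 4 of the 10 lay below 0. Acsl1, the main acyl-CoA synthetase of adipocytes, went from 17.4 to 3214 CPM (log2 fold change 7.53), while Slc25a20, the carnitine carrier between Cpt1a and Cpt2, rose by 0.74. Of 10 other dehydrogenases and oxidases, 9 rose, including Ivd of leucine breakdown (2.43). Other peroxisomal enzymes gave 8 of 12 higher, with Ephx2, an epoxide hydrolase, at 3.48 and Gnpat of ether lipid synthesis at 2.79. Acaa1b, of the same list, had an untreated mean below the filter's cutoff of 0.603 CPM. Its place among the 12 tested genes thus rested on higher values in induced libraries. Other peroxins and membrane proteins gave 9 of 16 higher, led by Pxmp2 (3.67) and Pex16 (2.70). All 5 tested ketone body genes rose, among them Acat1 (0.84). In these 5 lists 0 genes were called lower.

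Among 15 regulators, 9 rose and 1 fell. Lpin1, a lipid phosphatase and coactivator, went from 16.6 to 361 CPM (log2 fold change 4.45). Pparg, the master regulator of adipocytes, went from 22.9 to 268 CPM (3.55), Ppargc1b, a coactivator, from 2.28 to 24 CPM (3.39), and Ppara from 0.284 to 2.43 CPM (3.06). The untreated mean of Ppara lay below the filter's cutoff of 0.603 CPM. Its place among the tested genes thus rested on higher values in induced libraries. Ppargc1a, the other coactivator of oxidative genes, fell by 0.71, from 47.1 to 28.9 CPM (adjusted p = 0.0211).

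Cell-type markers moved with the set. All 10 mature adipocyte markers rose, and their summed level was 721 to 745 CPM in the untreated libraries and 20044, 22439 and 6328 CPM with DMI. Of 7 preadipocyte or fibroblast markers 5 fell, and their sum went from between 38455 and 40165 CPM to 19256, 19103 and 26731 CPM. The share of counts from mitochondrial DNA was 1.85% to 1.91% in untreated libraries and 4.72%, 4.28% and 2.87% with DMI. The summed level of 10 macrophage, endothelial and epithelial markers was 1.61 to 3.43 CPM over all libraries, of which Adgre1, Ptprc and Epcam had 0 counts in the untreated and DMI groups. Of 6 brown or beige adipocyte markers, Ucp1 had 0 counts in every library. Cox8b, a subunit of respiratory complex IV, rose (log2 fold change 6.31), Ppargc1a fell and the others did not pass the low-count filter. Nearly all of the 47.7 CPM of these markers in untreated cells came from Ppargc1a, and the untreated mean of Cox8b lay below the filter's cutoff of 0.603 CPM. The place of Cox8b among the tested genes thus rested on higher values in induced libraries. In bulk RNA, fewer cells of a type and less RNA per cell cannot be told apart, and the part of the share of adipocytes in the rise was not tested.

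Luteolin and quercetin are plant flavonoids that differ by an added hydroxyl group on the central ring of quercetin, a flavonol, which luteolin, a flavone, lacks. With luteolin added to DMI, 0 of 36 genes passed the threshold by edgeR, against 0.0202% of all tested genes, and 3 had an unadjusted p under 0.05 (6.09% of all genes). The log2 fold changes were below 0 for 34 of the 36 genes, with a median of -0.41, against -0.02 for all genes. The mitochondrial median was -0.51 and the peroxisomal median -0.24. DESeq2 also called 0 of the 36 genes, against 0.158% of all genes it was run on. The libraries overlapped for all 36 genes, where 5.24% of all genes did not overlap and were lower and 6.23% were higher.

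Same-numbered luteolin and DMI libraries deviated together, so they were also compared within pairs, a pairing taken from these data and not from the labels. In all 3 pairs the luteolin library was the lower for 28 of 36 genes, against 21% of all tested genes. With the replicate number as a block, 0 genes were called in the fit of all 12 libraries (0.168% of all genes) and 17, all lower, in the fit of these 6 libraries (6.58%). Lower values at all 3 replicate numbers were not particular to luteolin. Quercetin libraries, not treated as paired, were lower than the same-numbered DMI libraries for 30 of 36 genes, against 21.5% of all tested genes.

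The log2 fold changes furthest from 0 with luteolin were those of Ehhadh, Hadhb, Abcd2 and Pex11a. For Ehhadh, the filter already favoured a difference from DMI, since it was passed through DMI 1 and 2 and luteolin 2. Ehhadh had 32 counts against 118 with DMI alone, a ratio of DMI over luteolin of 3.88 (95% counting interval 2.61 to 5.93, edgeR adjusted p = 0.679). In CPM, its luteolin libraries had 0.524, 1.18 and 0.2. Hadhb had 196, 207 and 101 CPM with luteolin, each below the DMI library of the same number (log2 fold change -0.78, 95% interval -1.50 to -0.06, adjusted p = 0.803). Abcd2 had 16, 21.5 and 6.92 CPM (-0.73) and Pex11a 70.6, 71.9 and 33.9 CPM (-0.72). Hadha had 415, 449 and 288 CPM (-0.48). For each of these genes the third DMI library lay within the luteolin range. Cpt1a, at 122, 130 and 134 CPM, had a log2 fold change of -0.02 (95% interval -0.30 to 0.26).

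The acyl-CoA dehydrogenases were lower in the first and second luteolin libraries than in those of DMI. Acadm had 218, 231 and 137 CPM with luteolin, Acads 171, 178 and 108 CPM, and Acadl 207, 203 and 134 CPM. Their log2 fold changes were -0.53, -0.62 and -0.47, each with a 95% interval that includes 0. Etfdh had 142, 156 and 77.5 CPM, Cpt2 139, 139 and 80 CPM, and Hadh 156, 162 and 111 CPM. Acaa2 had 126, 126 and 88.2 CPM and Etfa 143, 154 and 112 CPM. In each of these 8 genes the groups overlapped only through the third DMI library.

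**Figure D4:**
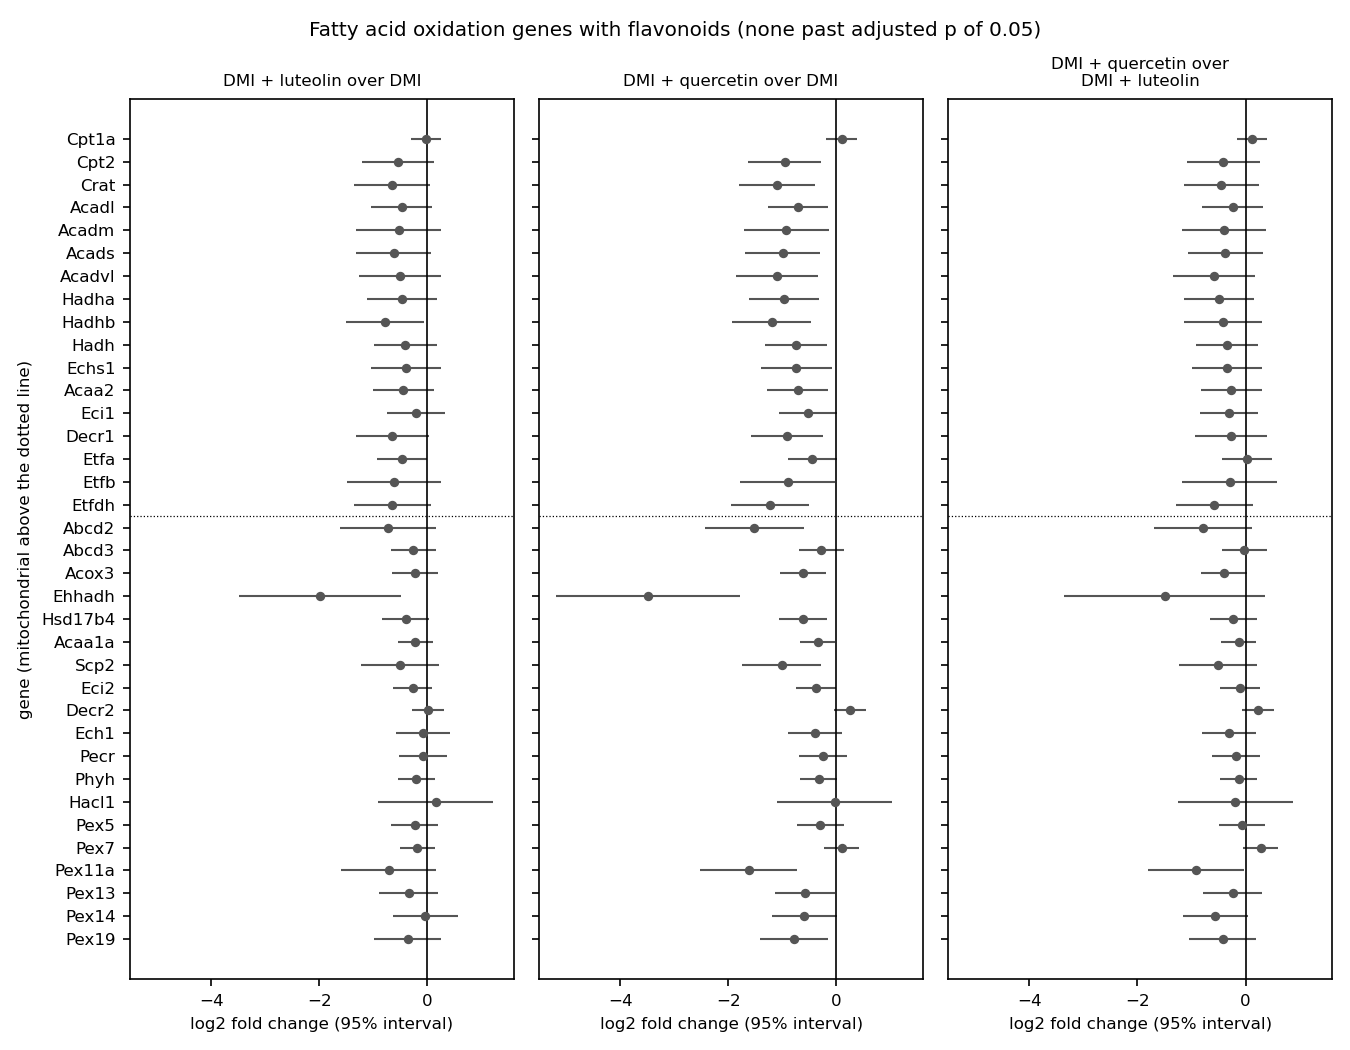
Log2 fold change with 95% intervals for the 36 tested genes in 3 comparisons, from left to right luteolin with DMI over DMI, quercetin with DMI over DMI, and quercetin over luteolin. No point passed an adjusted p of 0.05; most points lie left of 0, furthest for Ehhadh, while Cpt1a, Decr2 and Pex7 lie near it.

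With quercetin added, 0 of 36 genes passed by edgeR, against 1.01% of all tested genes (0.848% lower), while 24 had an unadjusted p under 0.05, against 21.3% of all genes. The log2 fold changes were below 0 for 33 genes, with a median of -0.71, against 0.02 for all genes. The mitochondrial median was -0.92 and the peroxisomal median -0.40. DESeq2 called 13 genes lower (3.25% of all genes it was run on), the fit with a replicate block 20 (9.39%) and the fit without a low-count filter 23 (5.98%). In the authors' deposited table the number lower was 5, where 1.51% of genes with an adjusted p were called. Without the third library of DMI 26 were called (17.4% of all genes) and without the third luteolin library 1 (1.79%). Without any other single library it was 0, with at most 3.78% of all genes called. The count therefore turned on the setting. Ehhadh, Pex11a, Abcd2 and Etfdh, picked for their large changes here, kept the sign of their log2 fold change wherever they were tested. Hadha, Hadhb and Cpt1a, picked by name, did so too. The alternatives reuse the same libraries, so a kept sign was favoured from the start. For Cpt1a the log2 fold change ran from 0.016 to 0.215 with 1 library left out.

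Ehhadh came nearest to the threshold, with 12 counts against 118, a ratio of DMI over quercetin of 11.4 (95% counting interval 6.31 to 22.8, edgeR adjusted p = 0.0524). Its quercetin libraries had 0.273, 0.101 and 0.307 CPM, all below the lowest DMI library. As 2 of the 3 libraries that carried it past the filter were DMI libraries and 0 were quercetin libraries, this difference was favoured by the filter. Pex11a had 39.8, 37.7 and 16.3 CPM (log2 fold change -1.63, 95% interval -2.53 to -0.73, adjusted p = 0.0727). Abcd2 had 9.22, 9.2 and 7.3 CPM (-1.52, 95% interval -2.43 to -0.61, adjusted p = 0.0904). These 3 peroxisomal genes were the ones whose quercetin and DMI libraries did not overlap, where 7.35% of all genes did not overlap and were lower and 6.68% were higher. Etfdh had 87.8, 102 and 61.1 CPM with quercetin (-1.23, adjusted p = 0.0848), and Hadhb 127, 144 and 106 CPM (-1.20, adjusted p = 0.0916). For both, the second quercetin library lay just above the third DMI library.

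Of the other mitochondrial genes given by library, those named next had quercetin values between those of the untreated and of the first and second DMI libraries. Hadha had 333, 322 and 163 CPM (log2 fold change -0.97, adjusted p = 0.11), and Acadvl 114, 109 and 54.6 CPM (-1.10). Acadm had 172, 195 and 78.5 CPM, Acads 137, 136 and 79.5 CPM, and Cpt2 102, 99.7 and 67.4 CPM. In each of these the third quercetin library was the lowest and still above the untreated libraries. Acadl had 161, 181 and 120 CPM, Acaa2 99.9, 117 and 65.5 CPM, and Hadh 120, 133 and 85.5 CPM. Scp2, on the peroxisomal side, had 198, 215 and 123 CPM (-1.01). Etfa, by contrast, had 123, 158 and 135 CPM, a log2 fold change of -0.45 (95% interval -0.91 to 0.01), with the third library between the others.

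The members with log2 fold changes above 0 with quercetin were Cpt1a, Decr2 and Pex7. Cpt1a had 152, 135 and 132 CPM (0.09, 95% interval -0.19 to 0.37). With replicate 3 of all induced groups left out it was called higher, at 0.28 with an edgeR adjusted p of 0.0448. In that setting 33.4% of all tested genes were called, and the DMI library with the highest Cpt1a level was dropped. Decr2 had 0.25 (95% interval -0.05 to 0.54) and Pex7 0.09. The Cpt1b share of both isoforms was 0.182% with luteolin and 0.2% with quercetin, with exact permutation p values of 0.4 and 0.7 against DMI.

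The summed mitochondrial level was 774 ± 171 CPM per kb with luteolin and 627 ± 153 with quercetin, 0.708 and 0.574 times that of DMI (SD, n = 3). The peroxisomal sums were 387 ± 70.1 and 321 ± 57.8, 0.802 and 0.664 times that of DMI. All these differences are smaller than the SD of the DMI group for luteolin, and for quercetin slightly larger. The summed level of the 10 mature adipocyte markers was 12218, 13644 and 5785 CPM with luteolin and 7034, 6868 and 3283 CPM with quercetin, and of these markers 0 and 2 (Retn and Lep) were called lower than with DMI. The summed level of the preadipocyte or fibroblast markers was 15865, 15226 and 20761 CPM with luteolin and 19025, 19630 and 21828 CPM with quercetin, against 19256, 19103 and 26731 CPM with DMI. Of the other lists, 1 gene was called, Acaca, acetyl-CoA carboxylase, whose product malonyl-CoA inhibits Cpt1. It was at 282 CPM with DMI and 139 CPM with quercetin (log2 fold change -1.02, edgeR adjusted p = 0.0484). Between quercetin and DMI, 1.01% of all tested genes were called. Without DMI library 1, and likewise without DMI library 2, 0 genes were called, so the calls of Retn, Lep and Acaca were lost there. Acsl1 had 1823 CPM with luteolin and 781 CPM with quercetin, with no call, a gene chosen after its values were seen. The part of the adipocyte share in these values was not tested.

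Quercetin and luteolin were set side by side at doses not known to match. Of 36 genes, 0 passed by edgeR, where 0% of all tested genes did, and 1 had an unadjusted p under 0.05, against 8.93% of all genes. DESeq2 called 0, against 0.00689% of all genes it was run on. The libraries overlapped for all 36 genes, where 5.2% of all genes did not overlap and were lower and 5.07% were higher. The median log2 fold change was -0.31, with 32 genes below 0, against 0.01 for all genes. Pex11a had -0.91 (95% interval -1.80 to -0.02, adjusted p = 0.552), Ehhadh -1.50 (-3.35 to 0.36), Abcd2 -0.79 (-1.70 to 0.12) and Acadvl -0.58 (-1.34 to 0.17). Acadvl had 156, 170 and 90.3 CPM with luteolin, so its quercetin libraries overlapped the luteolin range. Hadha had -0.49 (-1.14 to 0.16) and Hadhb -0.42 (-1.14 to 0.30). These intervals reach from large decreases to about no difference, so neither a difference nor a likeness of the compounds was shown. The Cpt1b share differed by 0.0176 percentage points (exact permutation p = 0.9).

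Against untreated cells, 26 of 36 genes were higher with DMI and luteolin and 0 lower, where 10.5% of all genes were higher, 8.74% lower and 19.3% called in either direction. With DMI and quercetin, 11 were higher and 0 lower, where 4.79% were higher, 4.66% lower and 9.45% called in either direction. All of these comparisons share the untreated libraries with the first one. Pex11a (log2 fold change 2.72 with luteolin and 1.81 with quercetin), Abcd2 (2.39 and 1.61), Acadm (1.99 and 1.596) and Hadhb (1.86 and 1.44) were called in both. Pex7 was called in both as well (0.48 and 0.76), on small changes with little spread. Scp2, at 284, 316 and 161 CPM with luteolin, was called with luteolin (1.64) and was not called with quercetin (1.14, adjusted p = 0.0535). Ehhadh was called with luteolin (edgeR adjusted p = 0.0272) and not with quercetin (0.225). The filter favoured this call and this contrast, since Ehhadh passed it through DMI 1 and 2 and luteolin 2. The luteolin count was 15 and 12 without luteolin library 1 or 2, where 8.46% and 7.76% of all genes were called. It was 13 and 17 without untreated library 1 or 2, where 9.37% and 9.64% were called. The quercetin count was 22 without DMI library 3 (14.5% of all genes called) and 27 without quercetin library 3 (21.6%). It was 7 without DMI library 1 (7.4%) and 6 without luteolin library 1 (6.57%). It was 2 and 1 without quercetin library 1 or 2 (8.33% and 3.68%), and 1, 0 and 1 without untreated library 1, 2 or 3 (3.01%, 3.22% and 3.63%). DESeq2 called 27 and 21 (11.8% and 7.16% of all genes it was run on). In the authors' deposited table, the counts were 31 and 22, where 23.5% and 7.65% of genes with an adjusted p were called.

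The spread within the induced groups had a pattern. The third library was the lowest of its group for 35 of 36 genes with DMI, 32 with luteolin, 29 with quercetin and 14 in untreated cells, while over all tested genes it was the lowest in 44.8%, 42%, 42.2% and 33%. The median ratio of the third library to the mean of the others was 0.492 with DMI, 0.692 with luteolin, 0.664 with quercetin and 1.01 in untreated cells. In the DMI group the ratio was 0.155 for Ehhadh, 0.328 for Abcd2, 0.351 for Pex11a and 1.26 for Cpt1a. Hacl1 with luteolin (1.73) and Ehhadh with quercetin (1.64) lay highest, both on few counts. With replicate 3 of all induced groups left out, 25 genes were called lower with luteolin than with DMI, against 10.4% of all genes called. With quercetin 29 were lower and 1 higher than with DMI, against 33.4%, and 20 were lower with quercetin than with luteolin, against 13.8%. The medians were then -0.50, -0.77 and -0.30, close to those of all libraries. The adipocyte marker sum was lowest, and the preadipocyte marker sum highest, in the third library of each of these groups. The mitochondrial DNA share was also lowest there with DMI and luteolin (2.87% and 2.91%), but in the quercetin group it was highest in the third library, at 4.65%. Whether these libraries had fewer adipocytes was not tested.

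**Figure D5:**
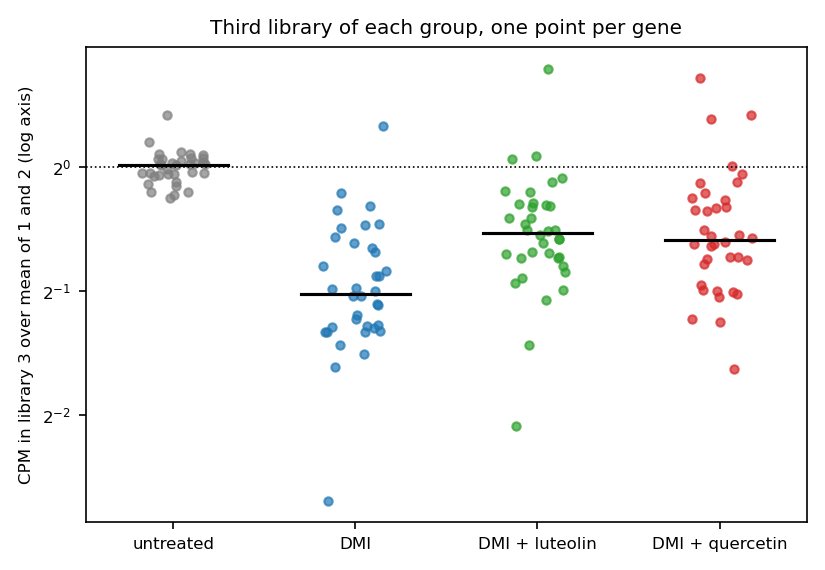
Ratio of CPM in the third library to the mean of the others, for the 36 tested genes in each group, on a log axis; black lines are medians and each point is a gene (Ehhadh is not drawn for untreated cells, where the other libraries had 0 counts). The medians lie at 1.01, 0.492, 0.692 and 0.664 from left to right, and 1 point of the DMI group, Cpt1a, lies above 1.

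Across libraries most of the genes moved together. Over the 9 induced libraries, the Pearson r of a gene's log2 CPM with the mean of the other members was highest for Decr1 (0.994), Acaa2 (0.993) and Acadl (0.992), and lowest for Cpt1a (-0.67), Decr2 (-0.37), Hacl1 (0.25) and Pex7 (0.31). Phyh, which was not called on induction, had 0.85 over the 9 induced libraries and 0.05 over all 12. The points share their library and its place in the spread just described, so these are descriptions with no p. The protein-coding genes outside the set most like its mean over the 12 libraries were Atp5g3 (0.998), Atp5a1 (0.996), Mdh2 (0.996), Pmpcb (0.995) and Ndufs1 (0.994). They encode 2 subunits of ATP synthase, malate dehydrogenase of the citrate cycle, a subunit of the mitochondrial processing peptidase and a subunit of respiratory complex I.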

How the data were processed

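RNA of 12 libraries was sequenced by the submitters. The authors deposited raw counts per gene. The submitters' processing notes name featureCounts 1.5.0-p3 and CASAVA 1.8.2, and no source used here gives the aligner or the use of strand. The same deposited table holds FPKM (proportional to count over gene length) and the authors' log2 fold changes and p-values, made by a tool that no source used here names; from these the authors' calls were read. The notes name mm9, but 98.3% of gene positions match GENCODE M21, so GRCm38 was taken as the build. Of the 37 genes of the set, 33 (89.2%) had exactly matching positions.

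The main test was the edgeR 4.0.16 quasi-likelihood test (R 4.3.3) with filterByExpr, TMM scaling, a fit with 1 term per group over all 12 libraries, and Benjamini-Hochberg adjustment within each of 6 comparisons over 14855 genes, at 0.05. The fit was tested on simulated data. Standard errors were derived from the log2 fold change and the F statistic of that fit, and the 95% intervals are symmetric t intervals built on them. Counting intervals cover counting error only. Alternatives were RLE scaling, no filter, DESeq2 1.42.0, a replicate block, only the 6 libraries of a pair, and leaving out libraries. Same-numbered luteolin and DMI libraries deviated together (r = 0.261, 0.337 and 0.59). They were treated as paired by a rule that every r pass a low cutoff, though the labels state no pairing. Other pairs were not, among them quercetin and DMI (r = 0.0682, 0.279 and 0.335), whose first r lay under the cutoff. Deviations were taken from group means, so the r values of a comparison are not independent of each other. The gene set, lists and alternatives were chosen with earlier results of these data known. Values in every library are given for the largest changes per comparison, the highest levels per length, and Cpt1a, Cpt1b, Hadha and Hadhb; of other lists, up to 4 genes with the largest change among those called. Some genes are not reported here.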

Additional observations from a re-analysis of the deposited data

How the results depend on the processing

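Shares in parentheses are of all genes tested at that setting. The count of genes called between DMI and untreated was 25 to 32 when single libraries were left out (12.3% to 36.6%) and 30 to 33 under the other settings (14.8% to 52.8%); all were higher except Cpt1a, lower without the third induced libraries. For luteolin against DMI, 0 calls became 5 without the low-count filter (1.25%), 17 with the replicate block in a fit of 6 libraries (6.58%) and 25 without the third induced libraries (10.4%), and lay between 0 and 4 when 1 library was left out (0% to 1.7%); with the replicate block over all 12 libraries they stayed at 0. For quercetin against DMI, 0 calls became 23 without the filter (5.98%), 20 with the replicate block (9.39%), 15 with it in 6 libraries (5%), 13 by DESeq2 (3.25%) and 30 without the third induced libraries (33.4%), with a range of 0 to 26 when 1 library was left out (0% to 17.4%). For quercetin against luteolin, 0 became 2 and 20 without the filter (1.55%) and without the third induced libraries (13.8%). For luteolin against untreated, leaving out 1 library gave 12 to 30 (7.76% to 29.5%). For quercetin against untreated, 11 became 25 without the filter (8.12%), 21 with the replicate block (14.2%), 19 and 18 in 6 libraries without and with it (9.42% and 7.88%), 21 by DESeq2 (7.16%), 30 without the third induced libraries (40.4%), and 0 to 27 when 1 library was left out (3.01% to 21.6%). Phyh (DMI against untreated) turned to 0.080 without the third induced libraries and 0.0035 in 6 libraries, and ran from -0.142 to 0.0408 with 1 library left out. Cpt1a (luteolin against DMI) turned to 0.0923 without the third induced libraries and ran from -0.100 to 0.0972 with 1 library left out. The differences in the Cpt1b share ran from -0.167 to 0.0381 percentage points (quercetin against DMI) and from -0.0873 to 0.118 (quercetin against luteolin). The cause was not tested. The replicate block changed no other call count by more than 1.5 times. Precision for Ehhadh, Hacl1 and Cpt1b is limited by their few counts, and a group reduced to 2 libraries borrows its spread from the others.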
